A study of Mus musculus with 4 samples.

Results

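The cytosolic ribosomal protein genes encode the protein parts of the ribosome that works in the cytoplasm, and 52 of the 4295 genes in the authors' deposited tables belong to them. They were chosen by gene name (Rpl, Rps or Rplp followed by a number, without the Rps6k kinases) among genes annotated as protein-coding, and 26 belong to the large and 26 to the small subunit by name. CT26 cells, a wild-type-labelled line of BALB/c mouse colon carcinoma, were cultured with the solvent DMSO (control) or with 25 µM riluzole, a glutamate-dampening drug used in amyotrophic lateral sclerosis, and polyA RNA was sequenced after 24 h from 2 libraries per group. The tables hold only genes with a deposited p-value below 0.05 for riluzole against control, 2515 lower and 1780 higher, of the 12601 tested genes that the deposited p-values imply. That number was derived from the 4218 listed genes with a deposited adjusted p below 1. The other 77 listed genes may lie outside it, so shares of it are approximate. Membership therefore rested on the contrast described here, so the members' directions and calls are a description and support nothing by themselves. A gene outside the tables was not shown to be unchanged.

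The large subunit joins amino acids and threads the new chain through its exit tunnel, and the small subunit reads the messenger RNA. Ribosomal protein mRNAs are among the most abundant in a dividing cell and mostly start with a pyrimidine tract, the TOP motif, through which mTOR signalling controls their translation. The genes have left many processed pseudogenes and some expressed retrogenes in mammalian genomes, so short reads from a parent gene and a copy can be hard to assign.

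Library totals implied by the deposited FPKM came to 15803444 and 20562946 counts in the controls and to 18174251 and 15932205 with riluzole (replicates 1 and 2 of each). Listed genes held 62.6%, 63.2%, 57.2% and 57.7% of them. The labels do not state that replicates came from separate cultures. The p-values reflect the spread among these 4 libraries, and that spread may be technical. The chi-square between replicate counts was 8.47 per ribosomal protein gene for the controls and 6.72 for riluzole. Over listed genes it was 3.56 and 3.20, so replicates differed beyond sampling noise. At an equal relative spread this measure grows with the count. A mean normalised count of at least 10000 was reached by 34 of 52 members and 170 of 4295 listed genes. The higher values thus do not show that members varied more than other genes. Among the markers of the cell line, Krt18 (log2 fold change 0.51), Krt8 (2.08) and Vim (0.69) were in the tables, and Epcam and Cdh1 were not. Krt8 had low mean normalised counts, 3.88 in the controls and 16.6 with riluzole. Of 12 markers of other cell types only Cd68 (0.70), Col1a1 (-0.34) and Col1a2 (-0.16) were listed. Col1a1 averaged 1805 and 1420, and Col1a2 23563 and 21121, in the controls and with riluzole. Listing depends on the p-value, so it does not show which markers were expressed. The part of these genes in the results below was not tested.

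Sequences that bear on how these mRNAs are counted and controlled are shown first. Rps27 encodes a zinc-binding protein of the small subunit, and Rps27rt is named as its retrogene. Their coding sequences, 252 bases each without the stop codon in GENCODE M21 (GRCm38), were identical, with 0 differences, while that of the paralog Rps27l differed from Rps27 at 60 positions. The windows of 30 bases before and 30 after the RefSeq starts (GRCm38.p6) of Rps27 (chr3:90213619-90213678, minus strand) and Rps27rt (chr9:114982710-114982769, minus strand) show how far the match runs, with the longest shared run, 29 bases, in capitals.
Rps27: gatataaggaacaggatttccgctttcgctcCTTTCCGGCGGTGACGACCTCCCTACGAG
Rps27rt: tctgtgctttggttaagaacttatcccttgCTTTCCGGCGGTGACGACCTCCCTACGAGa
The shared run begins at the annotated start of Rps27rt, and the letters before it are not shared. The transcribed bases in these windows and the whole coding sequence thus give little by which a read could be assigned to either gene.

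RefSeq start windows (GRCm38.p6) were available for 39 of the 52 genes; 13 genes had none in the table. The pyrimidine runs CTTTC or CTTTT, which a TOP motif can contain, were searched on the sense strand within 30 bases of any annotated start. A match to CTTTC cannot be a match to CTTTT, but a window can hold both. They were found for 18 of 39 genes (46.2%), against 15.5% of 27025 genes and 12.98% of the other listed genes. The windows of Rpl12 (chr2:32961682-32961741, plus), Rpl13 (chr8:123102320-123102379, plus), Rps6 (chr4:86857338-86857397, minus) and Rps26 (chr10:128626477-128626536, minus) are shown as examples that hold a run, and those of Rpl6 (chr5:121204471-121204530, plus) and Rps2 (chr17:24720033-24720092, plus) as examples that hold none; capitals mark the runs.
Rpl12: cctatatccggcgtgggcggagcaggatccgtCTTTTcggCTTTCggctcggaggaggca
Rpl13: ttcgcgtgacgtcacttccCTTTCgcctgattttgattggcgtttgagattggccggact
Rps6: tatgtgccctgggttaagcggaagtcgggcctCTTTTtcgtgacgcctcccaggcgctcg
Rps26: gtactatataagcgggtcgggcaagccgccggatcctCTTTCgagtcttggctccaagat
Rpl6: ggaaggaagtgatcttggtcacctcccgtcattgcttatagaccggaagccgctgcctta
Rps2: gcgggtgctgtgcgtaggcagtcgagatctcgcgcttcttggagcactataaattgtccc
Of the genes with a window, 17 of 35 lower and 1 of 4 higher genes (Rps27rt) held a run, so the examples do not stand for a direction. In Rpl12, Rps6 and Rps26 a run lies just after the start, and in Rpl13 it lies before it. Over the whole 300-base windows and both strands, CGGAAG, the core that ETS factors such as GABP bind, was present for 25 of 39 genes (64.1%), against 18.8% of all genes and 34.8% of the other listed genes. GGGCGG, the GC box bound by Sp1, was present for 61.5%, against 38.2% of all genes and 71.6% of the other listed genes. AAGATGGC, a YY1 core, was present for 7.69%, against 3.19% of all and 5.58% of the other listed genes. TATAAA was also present for 7.69%, against 15.7% and 9.75%. These matches describe letters in the windows and show no binding.

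With the authors' size factors, 48 of the 52 genes were lower with riluzole and 4 were higher, but with DESeq2 size factors computed on the listed genes alone 31 of the 52 had a positive log2 fold change. The decreases were small and alike: the median log2 fold change was -0.14, a median level at 90.5% of control, with -0.16 in the large and -0.14 in the small subunit. The largest decreases were in Rps27, Rpl30, Rpl22l1 and Rpl7l1, at -0.33 to -0.41. The 4 higher genes were Rps27rt (log2 fold change 0.85), Rps27l (0.30), Rps2 (0.25) and Rpl6 (0.12). As background, 20% of the implied tested genes were listed as lower and 14.1% as higher.

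Tested by quasi-likelihood in edgeR, with p-values adjusted by Benjamini-Hochberg over the 12601 implied genes, 46 of the 52 members passed at an adjusted p of 0.05, as did 99.5% of listed genes. Of these 42 passed as lower and 4 as higher, when 58.2% and 41.3% of listed genes passed in these directions. The 6 members that did not pass included Rpl8 (edgeR adjusted p 0.0680), Rpl37 (0.0991), Rplp0 (0.208) and Rpl10 (0.218), with log2 fold changes from -0.11 to -0.08. The authors' deposited table gives an adjusted p below 0.05 for 41 lower and 4 higher members, against 44.7% of listed genes lower and 72.9% in either direction. Without control replicate 2 the members' median log2 fold change was -0.13, and without riluzole replicate 1 it was -0.11. How many of all listed genes pass with a library left out was not counted. The genes named next therefore have no background share. The genes that passed whichever library was left out numbered 18: Rpl5, Rpl12, Rpl13, Rpl18, Rpl22l1, Rpl7l1, Rpl30, Rpl35, Rps6, Rps12, Rps13, Rps15, Rps20, Rps23 and Rps27 as lower, and Rps2, Rps27l and Rps27rt as higher. In 51 of the 52 genes the control and riluzole libraries did not overlap, as in 99.9% of listed genes. The exception was Rplp0, at 32898 and 35252 normalised counts in the controls and 31195 and 33058 with riluzole. Deposited p-values just inside the listing threshold belonged to Rpl10 (0.04995), Rplp0 (0.0484), Rpl37 (0.0457), Rps18-ps5 (0.0456) and Rps21 (0.0419). In bulk RNA, fewer cells that express a gene and less of its RNA per cell cannot be told apart.

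**Figure D1:**
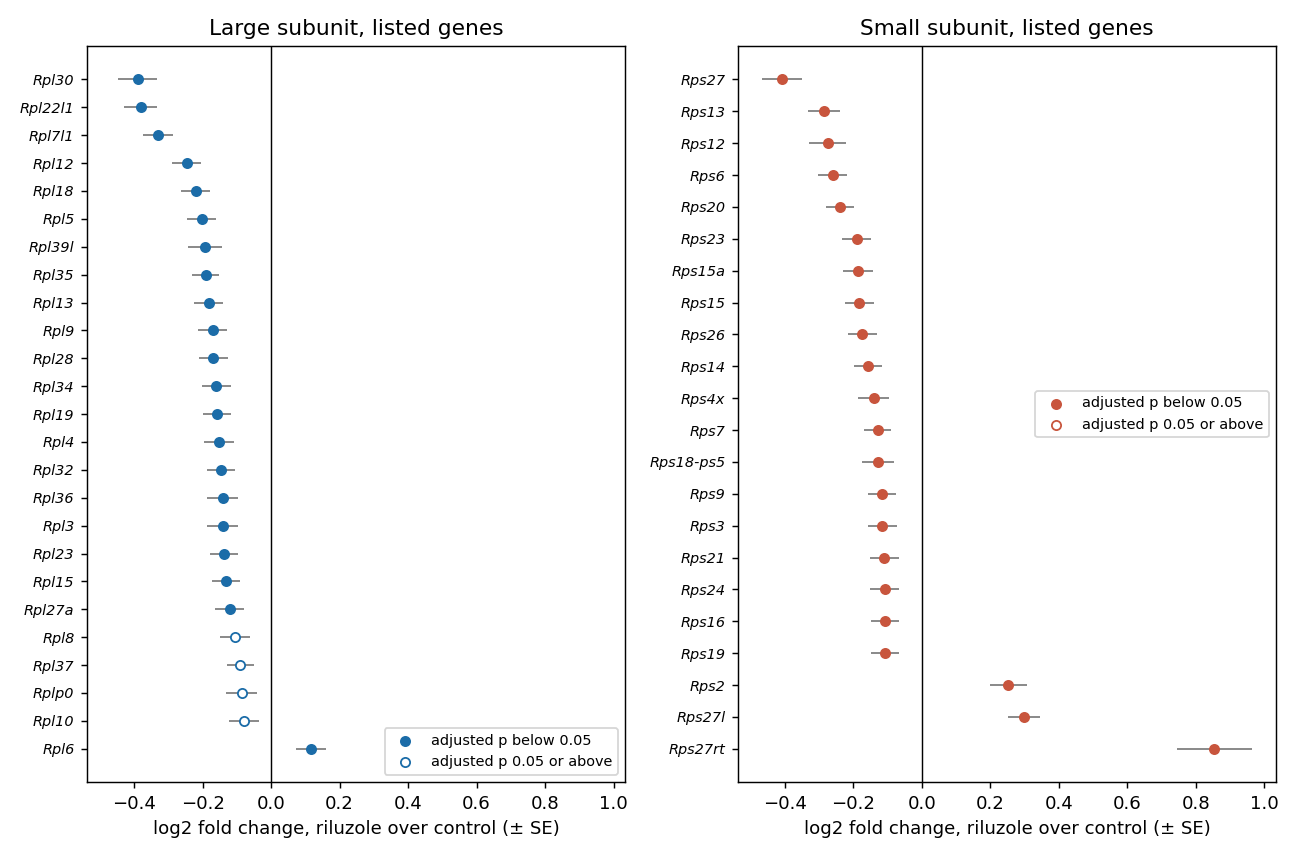
Log2 fold change of normalised counts, riluzole over control, for 25 of the 26 large subunit (left) and 22 of the 26 small subunit genes (right), with the authors' size factors; bars are the standard error of the fit (n = 2 per group) and filled points have an edgeR adjusted p below 0.05. Most points lie between 0 and -0.2, 4 genes lie to the right of 0, and Rps27rt lies farthest out at 0.85; with DESeq2 size factors from listed genes 31 of all 52 genes would lie right of 0.

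The listed genes are not the whole ribosome. Of 79 canonical ribosomal protein genes, 76 fit the name pattern and 46 of these (60.5%) were in the tables, when 34.1% of the implied tested genes were. For the large subunit 23 of 46 were listed (50%), 22 lower and 1 higher, and for the small subunit 23 of 30 (76.7%), also 22 lower and 1 higher. The large subunit genes not in the tables used here were Rpl7, Rpl7a, Rpl10a, Rpl11, Rpl13a, Rpl14, Rpl17, Rpl21, Rpl22, Rpl23a, Rpl24, Rpl26, Rpl27, Rpl29, Rpl31, Rpl35a, Rpl36a, Rpl37a, Rpl38, Rpl39, Rpl41, Rplp1 and Rplp2. Those of the small subunit were Rps3a1, Rps10, Rps18, Rps25, Rps27a, Rps28 and Rps29. Outside the name pattern, Fau, which makes a small subunit protein as a ubiquitin-like fusion, was lower (log2 fold change -0.18), and Rpsa was not in the tables. The other 6 members are not canonical: the paralogs Rpl22l1, Rpl7l1, Rpl39l and Rps27l, the retrogene Rps27rt, and Rps18-ps5, named as a pseudogene but annotated as protein-coding.

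In the large subunit, the 3 genes of highest mean FPKM, which uses the deposited gene length, were Rpl8, Rpl4 and Rpl36. Per coding length, described below, Rpl8 ranked 4, Rpl4 17 and Rpl36 31 among the 52 genes. Rpl8, whose protein lies near the peptidyl transferase centre, was at 37433 and 37545 normalised counts in the controls and 33837 and 35875 with riluzole. Rpl4, whose protein reaches into the exit tunnel, was at 41856 and 43059 in the controls and 37276 and 39089 with riluzole (log2 fold change -0.15 ± 0.04, SE). Rpl36 was at 7883 and 8206 in the controls and 6924 and 7676 with riluzole (-0.14 ± 0.04). In all 3 genes both riluzole libraries lay below both controls, and riluzole replicate 2 lay nearer to the controls than replicate 1; Rpl8 did not pass the edgeR test. Without riluzole replicate 1 the log2 fold change of Rpl36 was -0.07 and that of Rpl4 -0.12. Without riluzole replicate 2 they were -0.22 and -0.19. None of the 3 genes is among those named above that passed whichever library was left out.

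The largest decrease in the large subunit was in Rpl30 (mm39 chr15:34440651-34443786), whose protein also binds the SECIS element of selenoprotein mRNAs. It was at 1424 and 1388 normalised counts in the controls and 1099 and 1045 with riluzole, a fall of 0.39 ± 0.06 on the log2 scale (edgeR adjusted p 1.87e-06, Benjamini-Hochberg). Rpl22l1, the paralog of Rpl22 (mm39 chr3:28859585-28861573), went from 2568 and 2445 to 1893 and 1954. The groups were well apart in both genes. Rpl7l1 (mm39 chr17:47084833-47093598), a paralog of Rpl7 with a role in making the large subunit, went from 3451 and 3418 to 2789 and 2670, a log2 fold change of -0.33 ± 0.04. Rpl22l1 and Rpl7l1 are paralogs outside the canonical set. Rpl39l, the paralog of the tunnel protein Rpl39 known from testis, went from 2377 and 2386 to 2001 and 2168 (log2 fold change -0.19 ± 0.05), so the 3 large subunit paralogs all fell. Without riluzole replicate 1 Rpl39l was at -0.14, and it is not among the genes that passed whichever library was left out.

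Smaller decreases passed the test in the factor-binding stalk protein Rpl12 (log2 fold change -0.25), in Rpl18 (-0.22) and in Rpl5 (-0.20), which carries 5S rRNA into the subunit and can inhibit Mdm2. Rpl13 (-0.18), Rpl3 (-0.14) near the peptidyl transferase centre and Rpl15 (-0.13) passed with less. Without control replicate 2 Rpl3 was at -0.0750, and without riluzole replicate 1 Rpl3 was at -0.115 and Rpl15 at -0.101. Rpl3 and Rpl15 are not among the genes named above that passed whichever library was left out. Rplp0, the base of the stalk, had a log2 fold change of -0.09, and Rpl10, which joins late in the cytoplasm and completes the site for peptide transfer, -0.08; neither passed. The 1 higher gene was Rpl6 (mm39 chr5:121342544-121347304), at 20389 and 20885 normalised counts in the controls and 21670 and 23078 with riluzole. Both riluzole libraries lay above both controls, and the log2 fold change was 0.12 ± 0.04 (edgeR adjusted p 0.0330; 0.0227 in the authors' deposited table). It had an edgeR adjusted p of 0.125 with library totals implied by FPKM, and a log2 fold change of -0.11 with the count total of the genes outside the tables. Its log2 fold change was 0.10 without control replicate 1, 0.13 without control replicate 2 and 0.07 without riluzole replicate 2. Rpl6 did not pass in these fits.

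In the small subunit, Rps15 and Rps4x had the highest mean FPKM. Per coding length Rps15 ranked 25 and Rps4x 18 among the 52 genes. Rps15, whose tail reaches the decoding site, was at 12394 and 13128 normalised counts in the controls and 10940 and 11558 with riluzole (log2 fold change -0.18 ± 0.04). Rps4x, encoded on the X chromosome, was at 25127 and 27262 in the controls and 23007 and 24517 with riluzole (-0.14 ± 0.05). As in the large subunit, riluzole replicate 1 was the lowest library in both, control replicate 2 the highest, and the groups did not overlap. Without control replicate 2 the log2 fold change of Rps4x was -0.08 and did not pass.

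The largest decrease of the small subunit was in Rps27 itself (mm39 chr3:90119829-90120958), from 3927 and 4155 normalised counts in the controls to 2754 and 3353 with riluzole (log2 fold change -0.41 ± 0.06; edgeR adjusted p 1.04e-06; 0.0251 in the authors' deposited table). Without riluzole replicate 1 it was -0.27. Rps13 (mm39 chr7:115930740-115933430) went from 7474 and 8115 to 6115 and 6692 (-0.29 ± 0.05). Rps12 (mm39 chr10:23661081-23663173) went from 7898 and 9400 to 6945 and 7372 (-0.28 ± 0.05), and its controls lay farther apart than its groups' nearest libraries. Its adjusted p was 9.81e-05 in edgeR but 0.121 in the authors' deposited table, and without control replicate 2 its log2 fold change was -0.14. Rps6, the substrate of S6 kinase, had a log2 fold change of -0.26, Rps20, a target of the ubiquitin ligase Zfp598 on collided ribosomes, -0.24, and Rps26, which lines the mRNA exit, -0.17. Rps19 and Rps24, mutated in Diamond-Blackfan anaemia in humans, were at -0.11 each. With each library left out in turn Rps19 ran from -0.12 to -0.09, and without control replicate 2 Rps24 was at -0.07. Neither is among the genes named above that passed whichever library was left out. Rps18-ps5 was at 4116 and 4470 in the controls and 3788 and 4084 with riluzole (-0.13 ± 0.05), with an adjusted p of 0.0298 in edgeR and 0.140 in the authors' deposited table. It did not pass without control replicate 2 (-0.07) or riluzole replicate 1 (-0.07).

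The 3 higher small subunit genes included both relatives of Rps27. Rps27rt (mm39 chr9:114811434-114811807) was at 579 and 589 normalised counts in the controls and 1268 and 834 with riluzole, a log2 fold change of 0.85 ± 0.11 (edgeR adjusted p 2.06e-07; 0.0189 in the authors' deposited table). The riluzole libraries lay above the controls but far from each other, and the library with more Rps27rt had less Rps27. Without riluzole replicate 1 the log2 fold change of Rps27rt was 0.51. Rps27rt reached 14.8% and 14.2% of the Rps27 counts in the controls and 46.0% and 24.9% with riluzole. The sum of these genes was 4507 and 4744 in the controls and 4022 and 4188 with riluzole. That is a change of -11.3%, close to the decreases of many other members. Since their coding sequences are identical, how far the opposite directions come from the division of reads was not tested.

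Rps27l (mm39 chr9:66853368-66856798), the paralog of Rps27 and a p53 target, had no near-identical copy and no overlapping gene. It was at 1991 and 1917 normalised counts in the controls and 2411 and 2388 with riluzole, a rise of 0.30 ± 0.05 on the log2 scale (edgeR adjusted p 7.99e-06). Replicates lay close together in each group, and Rps27l went from 50.7% and 46.1% of the Rps27 counts to 87.5% and 71.2%. Rps2 (mm39 chr17:24937090-24940903), which lies near the mRNA entry channel, was at 1260 and 1196 in the controls and 1427 and 1496 with riluzole (0.25 ± 0.06). Its groups did not overlap, but 32 near-identical copies exist, more than for any other member. With the count total of the genes outside the tables as the scale, Rps27l and Rps2 did not pass (adjusted p 0.498 and 1), and Rps27rt did (1.37e-05).

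**Figure D2:**
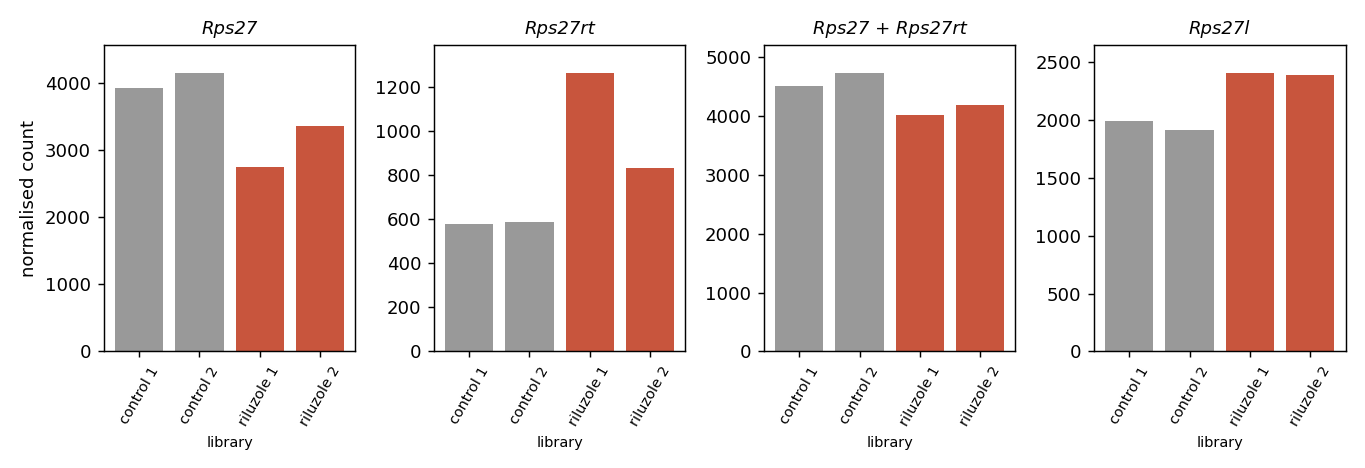
Normalised counts (count divided by the authors' size factor) of Rps27, Rps27rt, their sum and Rps27l in each of the 4 libraries; every bar is 1 library and each panel has its own axis from 0. Rps27rt rose most in riluzole replicate 1 (1268), the library in which Rps27 was lowest (2754), and the sum stayed between 4022 and 4744.

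Near-identical copies concerned almost all members. At a minimum of 95% identity over 200 bases or 50% of the coding sequence, 48 of the 52 genes had a copy in GRCm38, with a median of 5 per gene, and 304 of 321 copies were pseudogenes. Exons of 24 genes overlapped another gene. The 4 genes with neither included Rpl8, Rpl39l and Rps27l; their log2 fold changes were -0.11, -0.19 and 0.30, and Rpl8 did not pass. The number of copies showed little relation to the log2 fold change (Spearman -0.08 across 52 genes, which share libraries and are not independent).

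The tables also held 10 genes named as ribosomal protein pseudogenes and not counted as members. Of these 9 passed as lower, against 58.2% of listed genes, and the median of all 10 was -0.23 on the log2 scale. The most abundant, Rpl3-ps1, was at 16237 and 15998 normalised counts in the controls and 14531 and 14461 with riluzole. Rps26-ps1 was the only higher one, at 93.3 and 97.5 in the controls and 401 and 247 with riluzole. Its counts were 0.443% and 0.440% of those of Rps26 in the controls and 2.16% and 1.25% with riluzole. As with Rps27rt, riluzole replicate 1 held the higher value. Rps26 itself went from 21075 and 22158 to 18608 and 19728, and the sum with the pseudogene changed by -10.2%.

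Levels per length differed widely between members. The deposited FPKM, which scales fragments by gene length and library total, averaged over the 4 libraries, ran from 23.5 for Rpl30 to 1524 for Rpl8, a 64.8-fold range, with medians of 388 for the large and 315 for the small subunit. Rpl8 had an FPKM of 1588 and 1598 in the controls and 1414 and 1497 with riluzole. Rpl4 (1151), Rpl36 (1147), Rplp0 (1143) and Rps15 (1092) followed by mean FPKM, and the ranges of these 4 genes over the libraries overlapped. The lowest after Rpl30 were Rps2 (42.04), Rpl7l1 (50.5) and Rpl22l1 (63.8). Rpl30 has 12 near-identical copies and Rps2 has 32, while Rpl8 has none. Across the 52 genes the number of copies and the level per coding length had a Spearman correlation of -0.06. How far the assignment of reads between copies shaped these levels and their range was not tested. FPKM and log2 fold change had a Spearman correlation of 0.49 across the 26 large subunit genes and -0.22 across the 26 small subunit genes, a description over genes that share libraries. With levels per coding length, described below, the correlations were weaker, at 0.26 and -0.14. In the large subunit the low-level genes Rpl30, Rpl22l1 and Rpl7l1 had the larger decreases. In the small subunit the higher genes Rps2, Rps27rt and Rps27l had low levels, but other genes of low FPKM were lower. These were Rps15a (mean FPKM 82.2, log2 fold change -0.19), Rps24 (148, -0.11) and Rps13 (151, -0.29), all below the FPKM of Rps27l (153).

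The order of levels depended on the length used. The deposited gene length counts all annotated exons, and for Rps19 it was 6.05 times the principal transcript. Per kilobase of M21 coding sequence, an alternative chosen after the data were seen, the highest levels were those of Rps26 (3386), Rpl13 (3087) and Rpl12 (2867), and the range was 38.7-fold. Rps24 moved from rank 46 to 7, Rps20 from 40 to 6, and Rpl36 from 3 to 31. Of the 10 highest genes by FPKM 3 were among the 10 highest per coding length, and of the 10 lowest 8 were among the 10 lowest.

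**Figure D3:**
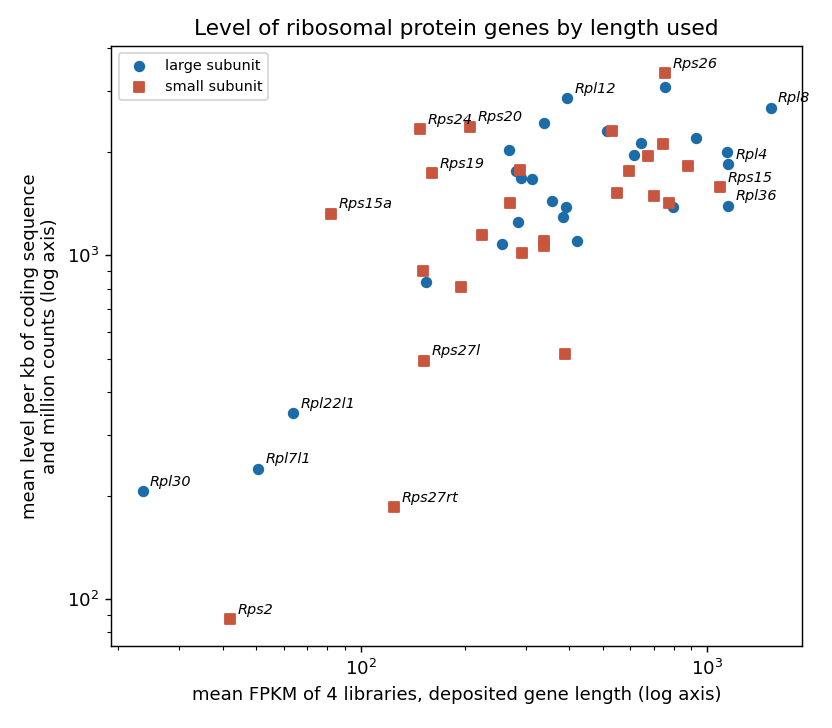
Mean FPKM over the 4 libraries, from the deposited gene length (horizontal, log axis), against the mean level on the same scale per coding length (vertical, log axis); each point is 1 of 52 genes and selected genes are named. Rps2, Rpl30, Rpl7l1 and Rps27rt are low on both axes, while Rps24, Rps19 and Rps15a are low only by FPKM. How far the assignment of reads between near-identical copies shaped these levels was not tested.

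Measured as a share of the library, the members held 4.52% and 4.69% of the implied total in the controls and 4.02% and 4.17% with riluzole. Both riluzole libraries lay below both controls, the means were 4.60% and 4.09%, and the difference of -0.51 percentage points had an exact permutation p of 0.333 (two-sided), the smallest that 2 against 2 can give. The large subunit share was 2.64% and 2.74% in the controls and 2.35% and 2.44% with riluzole, and the small subunit share 1.88% and 1.95% against 1.66% and 1.73%. As a share of the listed counts the values were 7.21% and 7.42% against 7.02% and 7.23%. There the groups overlapped for both subunits together (exact permutation p 0.667). The lower share of the library thus went with the lower share of all listed genes. The large subunit alone also overlapped. The small subunit alone did not, at 3.007% and 3.089% in the controls against 2.904% and 3.004% with riluzole (exact permutation p 0.333).

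Among the listed genes, the ratio of summed large to small subunit counts barely moved. Ribosomal protein genes outside the tables are not in this ratio, so the balance of the whole subunits was not measured. The summed large subunit counts were 1.400 and 1.402 times those of the small subunit in the controls and 1.418 and 1.408 times with riluzole, a ratio within each library that no scaling changes. The groups did not overlap, but the difference was only 0.0122 on the log2 scale (exact permutation p 0.333, two-sided). With each gene weighted equally, as the mean of log2(normalised count + 1), the difference was -0.0665. The large minus small values were 0.504 and 0.497 in the controls and 0.435 and 0.433 with riluzole, again without overlap. In this measure the higher genes Rps27rt, Rps27l and Rps2, all of low count, weigh as much as any other.

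**Figure D4:**
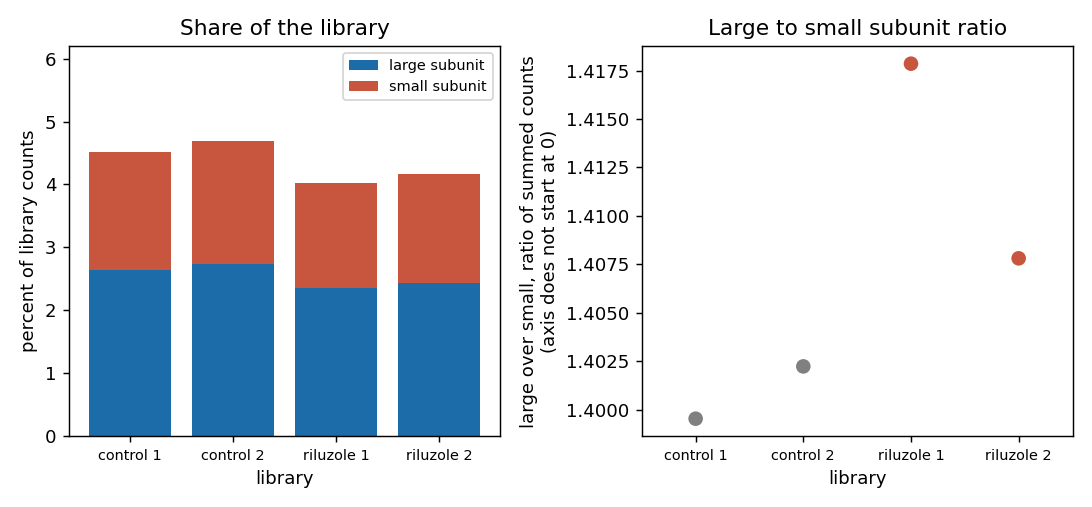
Left, percent of the implied library total in listed ribosomal protein genes, large subunit (blue) and small subunit (red), in each of the 4 libraries, from 4.02% to 4.69%. Right, ratio of summed large to summed small subunit counts per library (controls grey, riluzole red; the axis does not start at 0), from 1.400 to 1.418.

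Because the decreases were small, the scaling of the libraries decided how many passed. With TMM factors over the listed genes 10 members were lower and 4 higher in edgeR, when 38.6% and 41.4% of listed genes were, and the members' median log2 fold change was -0.05. With DESeq2 size factors from listed genes 5 were lower and 4 higher (24.3% and 41.4% of listed genes), the median was 0.02, and 31 of 52 values were positive. These factors assume that the centre of the genes used is unchanged, whereas the listed genes had been selected by p-value and include more lower than higher ones. They moved the median of all listed genes up by 0.10 and 0.17. With library totals implied by FPKM 46 were lower and 3 higher (58.5% and 40.5%), with a median of -0.17. With the count total of the genes outside the tables, a scale chosen after the data were seen, 48 were lower and 1 higher (58.7% and 18.6%), with a median of -0.37. Rps27, Rpl30, Rpl22l1, Rpl7l1 and Rps13 passed as lower and Rps27rt as higher under all 5 scalings.

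**Figure D5:**
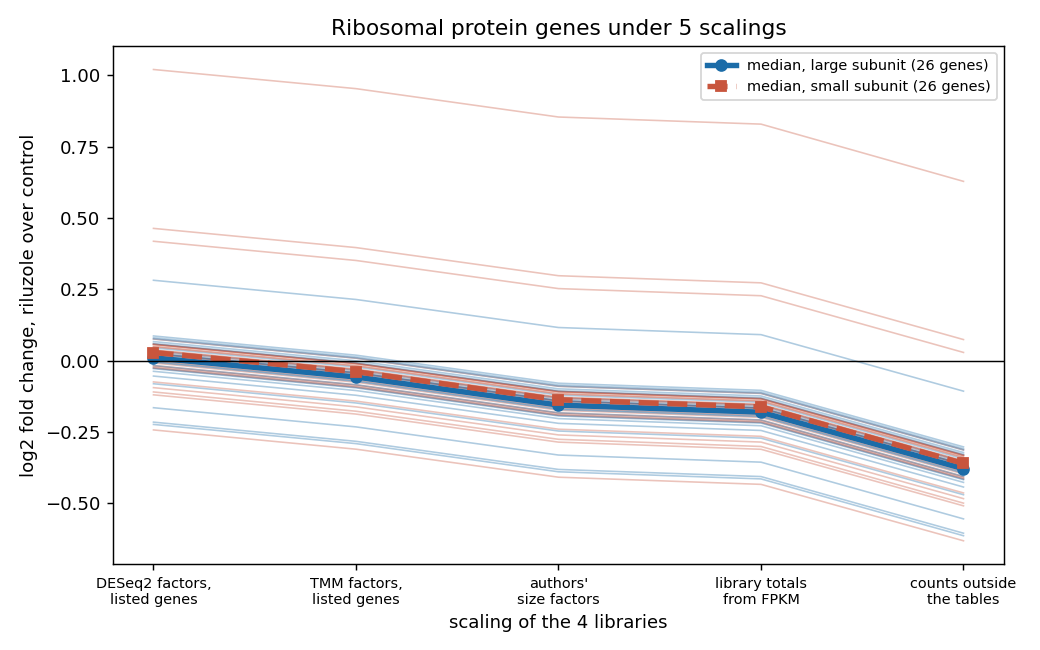
Log2 fold change, riluzole over control, of each of the 52 genes (thin lines, blue large and red small subunit) under 5 scalings of the same counts, with the median of each subunit (thick lines). Each scaling shifts all genes together; the median over both subunits runs from 0.02 with DESeq2 factors to -0.37 with the counts outside the tables.

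Relative to the other listed genes the members' decreases were small. On the log2 scale the median was -0.15 over the 48 lower members and -0.30 over the 2467 other lower genes. At a mean normalised count of at least 5000, 41 of 42 members were lower, with a median of -0.14, and 291 of 400 other listed genes were lower, with a median over all 400 of -0.19. Since listing needed a low p-value, which small changes reach more easily at high counts, these medians describe the listed genes only. The 5 listed genes outside the name pattern whose profile over the 4 libraries was nearest to the members' median profile, by root mean square distance of centred log2 values, were Prkar1a (distance 0.004), Ddost, Csnk2a2, Ccny and Btf3 (0.008).

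Other mRNAs known to carry a TOP motif, most of them for translation factors, moved both ways. Of 16, 13 were listed, 9 passed as lower and 4 as higher in edgeR. For these lists, as above, 34.1% of the implied tested genes were listed, and of listed genes 58.2% passed as lower and 41.3% as higher. The lower ones were Npm1 (log2 fold change -0.55), a nucleolar chaperone, the elongation factor subunits Eef1d (-0.39), Eef1g (-0.19) and Eef1b2 (-0.16), Eef2 (-0.15), the histone chaperone gene Nap1l1 (-0.21), the initiation factor Eif4b (-0.16), the ribosome-bound scaffold Rack1 (-0.15) and Tpt1 (-0.13). The higher ones were the initiation factor subunits Eif3f (0.13), Eif3h (0.15) and Eif3e (0.22) and the intermediate filament gene Vim (0.69). With DESeq2 size factors from listed genes Eef1b2, Eif4b, Eef2, Rack1 and Tpt1 had small positive values, and with the count total outside the tables Eif3f and Eif3h had negative ones. Eif3f had an adjusted p of 0.123 in the authors' deposited table.

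Of 7 genes for dedicated chaperones and carriers of ribosomal proteins 4 were listed and all 4 passed as lower, against the 58.2% of listed genes given above: Tsr2 (log2 fold change -0.41), which escorts Rps26, Ltv1 (-0.41), a small subunit assembly factor, Heatr3 (-0.29), which helps to import Rpl5, and Grwd1 (-0.22), the relative of a yeast chaperone of the Rpl3 protein. Of 6 transcription factors tied to these genes 3 were listed and passed as lower, against the same 58.2%: Myc (-0.26), Sp1 (-0.22) and the ETS factor Gabpa (-0.18). Of 10 regulators of TOP mRNA translation 5 were listed, 3 lower and 2 higher, a split near that of all listed genes. Rheb (-0.27), the activator of mTOR complex 1, Larp1 (-0.24), which binds TOP caps, and Rptor (-0.17) were lower. Eif4ebp2 (0.18), an inhibitor of the cap-binding initiation factor, and Tsc2 (0.20), which switches Rheb off, were higher. In the authors' deposited table Rptor had an adjusted p of 0.128, Gabpa of 0.0984 and Eif4ebp2 of 0.0653. With the count total outside the tables Eif4ebp2 and Tsc2 turned to -0.05 and -0.03.

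The 5S particle, Rpl5 and Rpl11 with 5S rRNA, binds Mdm2 when ribosome assembly is disturbed and so relieves p53. Of 7 genes of this relay 5 were listed, 3 lower and 2 higher, again near the split of all listed genes: Rrs1 (-0.45) and Rpf2 (-0.44), which load the particle, and Rpl5 (-0.20) were lower, and the p53 targets Cdkn1a (0.41) and Mdm2 (0.84) were higher; Rpl11 was not in the tables. Of 14 genes of ribosome quality control and of UFM1 attachment, which modifies Rpl26, 4 were listed, no larger a share than the 34.1% of implied tested genes, and all 4 passed as lower, among them Zfp598 (-0.57), which marks collided ribosomes, Ufm1 (-0.26) and the rescue factor Hbs1l (-0.26). The directions of all 9 genes were the same with TMM factors, DESeq2 size factors and the count total outside the tables.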

How the data were processed

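RNA from 2 control and 2 riluzole libraries was measured by polyA RNA-seq; groups came from the titles. Build mm39 and the tools HISAT2, featureCounts 1.5.0-p3, DESeq2 and edgeR appear in the submitters' processing notes; their settings and the strandedness were not given in the sources used here. Per the file headers, the authors deposited raw counts per gene. The deposited normalised values are a signal, each count divided by 1 size factor per library. The deposited FPKM divides counts by gene length and library total, from which totals were recovered. Per the file headers, the authors also made the log2 fold changes, p-values and adjusted p-values. Both tables were joined, and counts were tested with the quasi-likelihood test of edgeR 4.0.16 in R 4.3.3 over all 4295 listed genes, with the authors' size factors, no filter and Benjamini-Hochberg adjustment over 12601 genes. Because the listed genes were chosen by p, the fitted spread comes from chosen genes. The fit was also run on simulated counts with known changes. Values ± are standard errors of the fit.

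Near-identical copies were found with BLAST+ 2.17.0 against GENCODE M21 transcripts; an overlap needed at least 50 shared exon bases. Summaries used Python 3.11.15, pandas 2.3.3, SciPy 1.17.1 and matplotlib 3.10.9. Alternatives were 3 other planned scalings, the DESeq2 1.42.0 Wald test, a filter, adjustment over listed genes, a replicate block, leaving out each library, canonical genes only and members without copies; the scaling by counts outside the tables and the coding length were added after the data were seen. The members and lists were chosen with earlier results of these data known. Genes given with all 4 values are, per subunit, the 3 of highest FPKM, the 3 largest rises and falls, the non-canonical members and all higher members; Rplp0, Rps26, Rpl3-ps1 and Rps26-ps1 were added after their values were seen. A few items that these rules name are not reported here.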

Additional observations from a re-analysis of the deposited data

How the results depend on the processing

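Calls of lower members depended most on the scaling. Computed on the listed genes, TMM factors gave 10 and DESeq2 size factors 5, against 42; the median log2 fold change was -0.0454 and 0.0220, and -0.37 with the count total outside the tables. With TMM factors 4 genes turned positive on the log2 scale, among them Rpl37 (0.00914), Rplp0 (0.0130) and Rpl10 (0.0194). With DESeq2 size factors 27 genes did, among them Rpl34 (0.00517), Rpl19 (0.00802), Rps14 (0.00903), Rpl4 (0.0124), Rpl32 (0.0198), Rpl36 (0.0242), Rps4x (0.0246), Rpl3 (0.0249), Rpl23 (0.0281), Rpl15 (0.0347), Rps7 (0.0372), Rps18-ps5 (0.0379), Rpl27a (0.0450), Rps9 (0.0489), Rps3 (0.0505), Rps21 (0.0566), Rps24 (0.0572), Rps16 (0.0578), Rps19 (0.0582), Rpl8 (0.0604), Rpl37 (0.0764), Rplp0 (0.0804) and Rpl10 (0.0868). With the count total outside the tables Rpl6 turned to -0.11 and 1 gene was higher. Higher calls numbered 2 over canonical genes, and 1, with 2 lower, over the 4 members without copy or overlap, fewer because fewer genes were counted. Leaving out each library gave 17 to 38 lower and 3 to 4 higher calls and medians of -0.18 to -0.11, and 18 of 46 genes were called each time. That fit leaves an arm with 1 library, assumed to vary like the other. The DESeq2 Wald test gave 40 lower and 4 higher, adjustment over listed genes 46 and 4, and the low-count filter 42 and 4. Shares of all listed genes passing in these settings, or with the replicate block, were not counted. The subunit difference was -0.0665 with genes weighted equally, 0.0212 over canonical genes, and 0.0071 to 0.0174 with each library left out. The library share changed by -11.1% of control, -2.60% against listed counts, -22.5% against counts outside the tables, and -12.8% to -9.36% with each library left out. The range of levels was 38.7-fold per coding length. The labels share replicate numbers only; with 2 pairs, deviations of same-numbered libraries had a correlation of 0.0776 over 3998 genes and 0.220 over the members, and the replicate block gave 48 lower and 4 higher with a median of -0.14. The cause of these changes was not tested. The effect of depth on these members was not tested.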
